A study of Mus musculus with 6 samples.

Results

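Rgs1, Rgs2, Rgs3, Rgs10, Rgs14, Rgs18 and Rgs19 encode regulators of G protein signaling, and their transcripts were followed here in microglia, border macrophages and neutrophils sorted from mouse brain. These 7 genes were taken by symbol from the 32285 genes in the files. Single cells came from the whole brain of 3 male C57BL/6J mice at postnatal day 89, dissociated cold by Dounce homogenization and sorted as live CD45+/CD11b+ cells. Mouse 2 was processed with a cocktail of transcription and translation inhibitors (INHIB), and mice 1 and 3 without it (NONE). The sorted cells of each mouse were captured with both the V3 and the V3.1 version of the 10X Genomics 3' kit, so the 6 libraries were 3 for each kit, in pairs from the same animal. All 3 mice were wild type by their strain label, no enzyme was used on any of them, and INHIB was a single animal.

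RGS proteins bind the active alpha subunit of a heterotrimeric G protein and speed up its hydrolysis of GTP, which ends the signal of the receptor upstream. Microglia, macrophages and neutrophils read chemokines, nucleotides, complement fragments and lipid mediators through such receptors, so the set of RGS genes a cell expresses bears on how long these signals last. Among the members, Rgs1, Rgs2, Rgs3 and Rgs18 belong to the R4 family, of which Rgs2 acts chiefly on Gq and Rgs1 is known as a brake on chemokine receptors in lymphocytes. Rgs10 and Rgs14 belong to the R12 family and act on Gi, Rgs14 carrying Ras-binding domains and a GoLoco motif besides its RGS domain, and Rgs19 (also called GAIP) belongs to the RZ family and also acts on Gi.

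The files held 29412 barcodes and 83133615 UMIs (unique molecular identifiers, each standing for 1 captured transcript), with 6275898 to 18872816 UMIs per library. After limits on detected genes (1000 to 4000), UMIs (12000) and mitochondrial share (15%), 19725 barcodes were left, and these were gated on the UMIs of marker genes that include no RGS gene. The gates held 18964 microglia, 69 border macrophages and 275 neutrophils. By mouse, microglia numbered 6068, 7414 and 5482, border macrophages 18, 41 and 10, and neutrophils 108, 94 and 73 for mice 1, 2 and 3. The V3 library of mouse 3 stood apart, with a median of 809 UMIs per barcode and 21.5% of its barcodes passing, against at least 70.0% in each of the others. Pairs of libraries shared 1 to 5 passing barcodes, at most 0.316% of the smaller library.

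P2ry12 had a UMI in 99.8% of microglia, Ms4a7 in 89.9% and Mrc1 in 87.0% of border macrophages, and S100a8 and S100a9 in 100% of neutrophils. Other border markers were rarer in border macrophages: Cbr2 in 20.3%, Cd163 in 18.8%, Folr2 in 15.9%, Lyve1 in 5.80% and Cd209f in 2.90%. The microglial markers Gpr34, Olfml3 and P2ry12 were in 71.0%, 52.2% and 46.4% of these cells. Csf3r was in 61.5% of neutrophils and 44.7% of microglia. All these genes set the gates, so they are no independent check. Neutrophil transcripts were also read outside neutrophils, S100a9 having a UMI in 71.4% of microglia. In border macrophages the 9 microglial markers summed to 495 to 1650 counts per 1000000 UMIs (CPM) per library, against 13936 to 15368 in microglia, and the 5 platelet markers were at 0 in all libraries. Median UMIs per cell were 3508 in microglia, 4269 in border macrophages and 5772 in neutrophils, so shares of cells with a UMI are given with all UMIs and after each cell was thinned to 2000 UMIs, which left out 756 microglia. Intervals on shares and on summed counts are exact 95% intervals that cover counting error only.

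Rgs2, Rgs1 and Rgs18 lie in 1 cluster of 5 Rgs genes within 776098 bases of chromosome 1 (GRCm38), all on the minus strand: Rgs2 (ENSMUSG00000026360) at chr1:143999338-144004161, Rgs1 (ENSMUSG00000026358) at chr1:144242296-144249242 and Rgs18 (ENSMUSG00000026357) at chr1:144752683-144775435. The other two genes of the cluster, Rgs13 and Rgs21, had 0 UMIs in all 3 gates. Rgs10 (ENSMUSG00000030844) lies at chr7:128373621-128418758 on the minus strand, Rgs19 (ENSMUSG00000002458) at chr2:181688419-181693977 on the minus strand, Rgs3 (ENSMUSG00000059810) at chr4:62559847-62704001 on the plus strand and Rgs14 (ENSMUSG00000052087) at chr13:55369732-55384687 on the plus strand. RefSeq's table for GRCm38.p6 held promoters of 4 of the 7 members, and Rgs1, Rgs14 and Rgs18 had no entry. The 250 bases before the start are given for Rgs10, Rgs2 and Rgs19, the members with the most UMIs in microglia, on whose counts the comparisons of kits and inhibitors rest. They are chr7:128418173-128418422, chr1:144004150-144004399 and chr2:181693978-181694227, all on the minus strand and written 5′ to 3′. Capitals mark the letters TGACG (the inner part of a cyclic AMP response element) or GAGGAAG (the core bound by the myeloid factor PU.1), searched on both strands.
Rgs10: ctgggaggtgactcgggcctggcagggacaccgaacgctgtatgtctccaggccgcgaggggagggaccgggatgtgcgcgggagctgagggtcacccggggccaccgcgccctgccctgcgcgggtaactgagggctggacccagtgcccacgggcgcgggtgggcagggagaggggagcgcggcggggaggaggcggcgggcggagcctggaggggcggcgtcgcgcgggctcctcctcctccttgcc
Rgs2: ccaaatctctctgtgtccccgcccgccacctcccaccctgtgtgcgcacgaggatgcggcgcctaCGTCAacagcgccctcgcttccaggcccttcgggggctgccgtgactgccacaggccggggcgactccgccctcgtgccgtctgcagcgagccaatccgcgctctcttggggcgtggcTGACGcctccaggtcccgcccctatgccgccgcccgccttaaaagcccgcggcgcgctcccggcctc
Rgs19: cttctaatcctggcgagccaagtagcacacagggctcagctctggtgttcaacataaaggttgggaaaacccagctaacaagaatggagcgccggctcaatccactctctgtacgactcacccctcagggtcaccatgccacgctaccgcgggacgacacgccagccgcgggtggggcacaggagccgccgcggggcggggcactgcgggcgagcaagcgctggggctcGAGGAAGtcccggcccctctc
Rgs10 had neither motif in this window. Rgs2 had TGACG on both strands, beginning 185 and 67 bases before the start, and Rgs19 had GAGGAAG beginning 21 bases before it. Of the 32851 promoters in the table, 17.8% held TGACG and 10.6% held GAGGAAG in the same length, and no match of one overlapped the other. TGACGTCA, which contains TGACG, and TTGCNNAA, the letters bound by C/EBP factors, were also searched, had no match in these 3 windows and were in 1.55% and 9.56% of all promoters. These windows held 27, 30 and 20 CpG in Rgs10, Rgs2 and Rgs19, against a median of 6.00 over all promoters. The table holds 3 entries for Rgs19, of which the most upstream is printed. The other two held GAGGAAG at 188 and 110 bases before their starts, with 34 and 4 CpG.

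Across cell types, UMIs were summed per mouse and cell type and compared by edgeR's quasi-likelihood test with the mouse as a block and Benjamini-Hochberg adjustment over 7622 genes. Calls required an adjusted p under 0.05 together with a log2 change of more than 0.58. The members had different patterns. Rgs10 was high in microglia and border macrophages and low in neutrophils, Rgs18 and Rgs14 were highest in neutrophils, and Rgs1 had a single UMI in neutrophils. Between border macrophages and microglia 2 of the 7 members were called, Rgs18 higher and Rgs2 lower, against 17.2% of all genes. That count was 5 without mouse 1 and 4 with total UMIs (1 higher and 3 lower, against 6.98% and 15.6% of genes). Between neutrophils and microglia 6 members were called, 4 higher and 2 lower, against 67.9% of genes, and with total UMIs 2 were higher and 3 lower, against 11.8% and 74.7%. Between neutrophils and border macrophages all 7 were called, 5 higher and 2 lower, against 47.3% (22.9% higher and 24.4% lower), and with total UMIs 3 were higher and 2 lower, against 10.1% and 47.4%. Rgs18 and Rgs14 passed the filter on low counts only through the cells in which they are high, so they had to differ. Rgs1 passed it only through microglia, so its lower value in neutrophils than in microglia is likewise a description. All these calls are included in the counts as a description.

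Values in this fit are normalised CPM, scaled by trimmed mean of M values (TMM). S100a8 and S100a9 together made up 39.2% of neutrophil UMIs, which lowers the plain CPM of every other gene there. The median of all genes was −0.30 between neutrophils and microglia with TMM and −1.78 with total UMIs, a shift of −1.48, and the shift was −0.35 between border macrophages and microglia. Folds are therefore relative to the other genes of the cell, and the members whose call turned on this choice are named with both values.

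**Figure D1:**
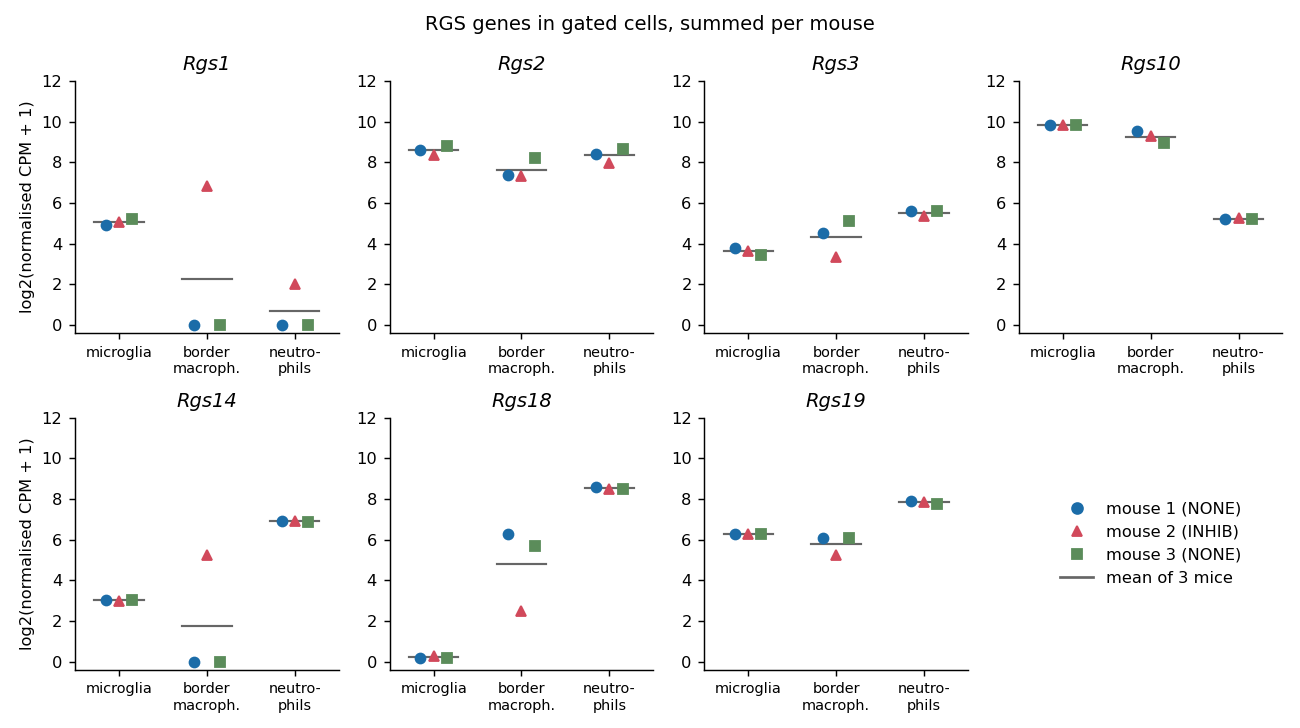
Each panel plots 1 RGS gene, with log2(normalised CPM + 1) of the 3 mice in microglia, border macrophages and neutrophils, and lines at the mean of the 3 mice. Rgs10 sits low in neutrophils, Rgs18 and Rgs14 sit high there, and in border macrophages Rgs1 and Rgs14 are above 0 in mouse 2 (INHIB) alone.

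Rgs10 in microglia was 914, 907 and 914 normalised CPM in mice 1, 2 and 3, and in border macrophages 735, 625 and 498. In neutrophils it was 35.8, 37.1 and 35.9. The 3 mice lay close together in microglia and in neutrophils, every border macrophage value lay below every microglial one, and no groups overlapped. The log2 fold change of neutrophils against microglia was −4.65 (SE 0.18, adjusted p = 1.74e-144). That of border macrophages against microglia was −0.53 (SE 0.13, adjusted p = 4.01e-04), short of the fold required, where 17.6% of genes passed on the adjusted p alone. It was called with total UMIs at −0.87, with the V3.1 libraries alone at −0.71, and without mouse 1 at −0.65 or mouse 2 at −0.58, while without mouse 3 it was −0.45 (adjusted p = 0.116). What remained in neutrophils was 33 UMIs, 1.42% of the plain CPM in microglia (95% interval 0.980 to 2.00%). The 9 microglial markers had 0.357 to 2.17% of their microglial CPM in neutrophils, with a median of 0.635%. Rgs10 lay within this range, but only P2ry13, at 2.17%, was above it, and its interval lay above the other 8 markers, the highest of which was at 0.798%. The source of these UMIs was not tested. In border macrophages the same markers had 0 to 16.3% of their microglial CPM and Rgs10 had 54.3%. The gates allowed fewer than 10 summed UMIs of these markers in neutrophils and fewer than 20 in border macrophages. Their shares were thus partly set by the gates, in which Rgs10 took no part.

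At least 1 UMI of Rgs10 was found in 96.7% of microglia (96.4 to 96.9%), 94.2% of border macrophages (85.8 to 98.4%) and 10.9% of neutrophils (7.48 to 15.2%). After thinning, the shares were 91.2%, 79.7% and 5.45%. Fcrls, a microglial gene that took no part in the gates, had a UMI in 7.64% of neutrophils, 3.27% after thinning, and the intervals of the 2 genes overlapped. In border macrophages Fcrls had a UMI in 76.8% of cells, 60.9% after thinning. Over the 6 libraries the share of microglia with Rgs10 ranged from 95.4% to 97.7%.

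Rgs2 had 391, 330 and 445 normalised CPM in microglia of mice 1, 2 and 3, 165, 160 and 299 in border macrophages, and 340, 253 and 406 in neutrophils. Border macrophages were lowest in each mouse, neutrophils lay between, and the ranges of microglia and neutrophils overlapped. Mouse 3 was highest and mouse 2 lowest in all 3 cell types. Border macrophages were lower than microglia by a log2 fold change of −0.97 (SE 0.19, adjusted p = 4.33e-06), which was called under all 14 alternatives, at −1.30 to −0.88. Neutrophils differed from microglia by −0.23 (SE 0.12, adjusted p = 0.0717) with TMM and by −1.71 (adjusted p = 3.88e-45) with total UMIs, and were higher than border macrophages by 0.74 (SE 0.21, adjusted p = 0.00180) with TMM but at −0.41 (adjusted p = 0.123) with total UMIs. The order of Rgs2 in neutrophils thus turned on the scaling. Shares with a UMI were 81.9% of microglia (81.4 to 82.5%), 50.7% of border macrophages (38.4 to 63.0%) and 55.6% of neutrophils (49.5 to 61.6%), and 65.6%, 24.6% and 33.1% after thinning.

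Rgs19 had 77.4, 76.8 and 75.7 normalised CPM in microglia, 65.8, 36.5 and 66.5 in border macrophages and 242, 232 and 215 in neutrophils. Neutrophils were higher than microglia in every mouse, by a log2 fold change of 1.59 (SE 0.17, adjusted p = 2.86e-20), but with total UMIs the difference was 0.11 (adjusted p = 0.512), so this call rests on the scaling. Border macrophages lay below microglia in all 3 mice, with a log2 fold change of −0.64 (SE 0.37, adjusted p = 0.265) that rests on 18 UMIs. With total UMIs this difference was called, at −0.99 (adjusted p = 0.0242), so it also turned on the scaling. Shares with a UMI were 33.3%, 21.7% and 50.2% in microglia, border macrophages and neutrophils, and 20.8%, 11.6% and 21.5% after thinning, where the intervals of microglia (20.2 to 21.4%) and neutrophils (16.8 to 26.8%) overlapped.

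Rgs1 was found in both macrophage types and almost not in neutrophils. In microglia it had 28.8, 33.0 and 36.4 normalised CPM in mice 1, 2 and 3, from 3372 UMIs in all. Border macrophages had 0, 114 and 0, and neutrophils 0, 3.09 and 0. All 25 border UMIs and the single neutrophil UMI came from mouse 2. That 1 UMI put Rgs1 in neutrophils at 1.21% of the plain CPM in microglia (0.0305 to 6.73%). The fitted log2 fold change of neutrophils against microglia was −4.88 (SE 0.78). It is given as a description, since the filter admitted Rgs1 for its values in microglia. The call against border macrophages (adjusted p = 1.00e-09) was lost with DESeq2 (0.143) and without mouse 2 (1.00). Between border macrophages and microglia the log2 fold change was 0.93 (SE 0.38, adjusted p = 0.0706), and leaving out mouse 2 turned its direction. A UMI of Rgs1 was found in 14.8% of microglia (14.3 to 15.4%), 17.4% of border macrophages (9.32 to 28.4%) and 0.364% of neutrophils (0.00921 to 2.01%), and after thinning in 8.89%, 9 of 69 cells and 0.364%. The neuronal gene Snap25, which these cells should lack, had a UMI in 0.200% of microglia, 0.104% after thinning. Over the 6 libraries the share of microglia with Rgs1 lay between 13.1% and 15.8%.

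Rgs18 and Rgs14 were highest in neutrophils. Rgs18 had 388, 365 and 362 normalised CPM in neutrophils, 76.8, 4.56 and 49.8 in border macrophages and 0.118, 0.225 and 0.135 in microglia. The 3 cell types did not overlap, and border macrophages spread over a wide range. The fitted log2 fold changes against microglia were 11.05 (SE 0.25) for neutrophils and 7.45 (SE 0.86) for border macrophages, given as a description, since the filter admitted Rgs18 for its high values. In microglia the 17 UMIs of Rgs18 were 0.123% of its plain CPM in neutrophils (0.0710 to 0.200%), and 11 of the 12 neutrophil markers lay at 0.0967 to 0.434% there, Csf3r being the exception at 80.4%. The gate also allowed microglia fewer than 50 summed UMIs of these markers, so their shares were partly set by it. The source of the Rgs18 UMIs in microglia was not tested.

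In border macrophages Rgs18 is set beside the neutrophil markers. The gate allowed fewer than 50 summed UMIs of these markers per cell, so their low shares were partly set by it. Its 11 UMIs, in 8 of 69 cells, gave 17.5% of the neutrophil CPM (8.64 to 31.6%), while the 12 neutrophil markers had 0 to 1.21% there except Csf3r at 27.6%. Rgs18 is also well known in platelets. The 5 platelet markers were at 0 in these cells, but Ppbp and Gp1bb were at 0 in all 3 gates. Gp9 had a UMI in 16.5% of microglia. Pf4, also a platelet gene, helped set the border gate and was at 1239 CPM there. A part of platelet RNA was not tested. By mouse, 4 of 18 cells had a UMI in mouse 1 (22.2%), 1 of 41 in mouse 2 (2.44%) and 3 of 10 in mouse 3 (30.0%). Over all neutrophils the share was 69.1% (63.3 to 74.5%), against 0.0896% of microglia, and 30.2% against 0.0549% after thinning.

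Rgs14 had 122, 121 and 116 normalised CPM in neutrophils, 7.28, 6.86 and 7.05 in microglia and 0, 36.5 and 0 in border macrophages. Neutrophils and microglia were each tight across mice and far apart. The log2 fold change was 4.08 (SE 0.25), and 2.60 with total UMIs. Both are given as a description, since the filter admitted Rgs14 for its high values in neutrophils. Its microglial level was 16.5% of that in neutrophils by plain CPM. Those 11 neutrophil markers had lower shares, which were partly set by the gate. The border macrophage value rests on 8 UMIs, all in mouse 2, and the log2 fold change against microglia was 1.58 (SE 0.67, adjusted p = 0.0963). A UMI of Rgs14 was found in 32.4% of neutrophils (26.9 to 38.2%), 10.1% of border macrophages (4.18 to 19.8%) and 3.61% of microglia (3.35 to 3.88%), and after thinning in 16.7%, 5.80% and 2.17%.

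Rgs3 was sparse in all 3 cell types. It had 12.7, 11.4 and 9.82 normalised CPM in microglia, 21.9, 9.13 and 33.2 in border macrophages from 2 UMIs in each mouse, and 47.7, 40.2 and 47.8 in neutrophils. Neutrophils exceeded microglia in every mouse, by a log2 fold change of 1.98 (SE 0.33, adjusted p = 5.53e-09), but by 0.50 (adjusted p = 0.109) with total UMIs. Border macrophages were not separated from microglia (0.53, SE 0.70, adjusted p = 0.723). Neutrophils were called above border macrophages at 1.46 (SE 0.64, adjusted p = 0.0470), a call lost with DESeq2 (adjusted p = 0.109), with total UMIs (0.709) and without any 1 of the mice (0.0902, 0.447 and 0.0606). The share of cells with a UMI was 5.84% in microglia, 8.70% in border macrophages and 13.5% in neutrophils, and 3.41%, 5.80% and 5.09% after thinning, where the intervals of border macrophages and neutrophils reached from 1.60% to 14.2% and from 2.81% to 8.39%.

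**Figure D2:**
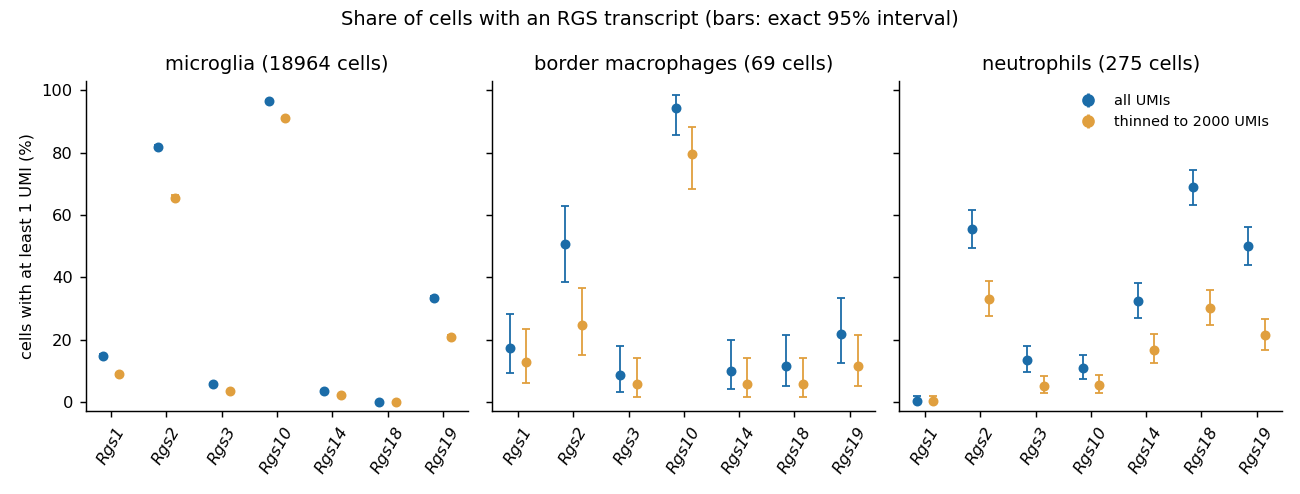
Share of cells (%) with at least 1 UMI of each RGS gene in the 3 gates, with all UMIs (blue) and after thinning each cell to 2000 UMIs (orange), with exact 95% intervals for counting error. Rgs10 was found in 96.7% of microglia and 10.9% of neutrophils, and Rgs18 in 0.0896% and 69.1%.

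The rest of the RGS family was scarcely present. Of 14 other Rgs genes in the files, 7 had 0 UMIs in all 3 gates, 5 had fewer than 10, and only Rgs12 (257 UMIs in microglia) and Rgs11 (43) had more. Of the wider list of RGS-like genes 5 were tested across cell types. Between border macrophages and microglia 0 of the 5 were called, and between neutrophils and microglia 1, fewer than the 67.9% of all genes called there. It was Gpsm3, which holds GoLoco motifs like Rgs14 and was higher in neutrophils than in microglia by a log2 fold change of 3.15 (SE 0.11, adjusted p = 3.10e-192), and by 1.67 with total UMIs, where the other 4 were called lower.

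The genes whose pattern was most like each member's were taken by Pearson's r of log2(CPM + 1) over the 9 sums of 3 mice and 3 cell types, among 5806 genes. These sums share the same libraries, and 6 of them hold few cells, so the values are descriptions. For Rgs10 they were Ly86, Zfp318 and Rnase4, each at r = 0.999. For Rgs18 they were Ampd3 (r = 0.990), Vim and Sh3bp5, and for Rgs14 Tnfaip2 (r = 0.985), Prkcb and Dmxl2. The other members had Cnot1 (r = 0.983) for Rgs2, Rb1 (r = 0.986) for Rgs1, Pbx2 (r = 0.960) for Rgs19 and Mea1 (r = 0.946) for Rgs3 as their closest.

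Genes of the pathway around the members were counted from fixed lists. Of 8 G alpha genes tested between neutrophils and microglia, 2 were called higher, the Gi genes Gnai3 (log2 fold change 2.56, SE 0.17) and Gnai2 (1.86, SE 0.15), and 3 lower, among them Gna15 of the Gq class (−2.38, SE 0.25) and Gna12 (−2.15, SE 0.30). Of 7 G beta and gamma genes, 5 were higher and 2 lower, with Gng5 at 2.51 and Gng10 at −1.95. Among 25 receptors, 9 were higher, led by the formyl peptide receptor gene Fpr2, and 14 lower, such as the nucleotide receptor gene P2ry6 (−6.33, SE 0.36). Fpr2 had 0.325 normalised CPM in microglia and passed the filter through neutrophils, so its rise is a description. Of 20 receptor kinase, arrestin and effector genes, 10 were higher and 3 lower. All these counts stand against 29.2% of all genes called higher and 38.7% lower. The median log2 fold change was 0.39 for G alpha, 1.36 for G beta and gamma, −1.72 for receptor and 0.67 for effector genes, against −0.30 for all genes. With total UMIs the calls were 1 higher and 6 lower for G alpha, 2 and 2 for G beta and gamma, 9 and 16 for receptor and 3 and 12 for effector genes, against 11.8% and 74.7% of all genes, and the medians −1.09, −0.12, −3.21 and −0.82. Gnai2 was no longer called, at 0.38, while Gnai3 (1.08), Gng5 (1.03) and Fpr2 (9.48) stayed higher.

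Between border macrophages and microglia, where 9.81% of all genes were called higher and 7.36% lower, 9 of 25 receptors were higher and 7 lower. Gpr65, a proton-sensing receptor gene, was higher by a log2 fold change of 4.87 (SE 0.30), the chemokine receptor gene Ccr1 by 4.86 (SE 0.35), and the fractalkine receptor gene Cx3cr1 was lower at −1.87 (SE 0.17). Of 8 G alpha genes only Gna15 was called (−1.07, SE 0.28), of 7 G beta and gamma genes Gng5 and Gnb1 were higher and Gng10 lower, and of 20 effectors 3 were higher and 1, Elmo1, lower. With total UMIs 0 G beta and gamma genes and 0 effectors were higher, Gng5 at 0.58 and Gnb1 at 0.54 losing their calls, and 8 receptors were higher and 8 lower, against 6.98% and 15.6% of all genes.

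The kit comparison asks whether the 2 versions of the kit read the same cells alike. By the study's methods they were also run on different chips and controllers, so chemistry, instrument and capture cannot be told apart. In microglia 6 of the 7 members were tested, Rgs18 being below the filter, and 0 were called by edgeR, against 3.05% of 12017 genes. DESeq2 also called 0, and 2 of the 6 had an unadjusted p below 0.05 by edgeR, against 29.4% of all genes. Rgs10 had 1240, 1241 and 1175 normalised CPM with V3 in mice 1, 2 and 3 and 1546, 1552 and 1417 with V3.1. Every V3.1 library was above every V3 library, by a log2 fold change of 0.30 (SE 0.07, adjusted p = 0.0102), which was below the fold required, 13.8% of genes passing on the adjusted p alone. Without mouse 1 or mouse 2 the adjusted p was 0.0718 or 0.10. With the mouse as a block, since both kits used cells of the same animal, the adjusted p was 1.10e-04.

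Rgs19 went the other way. It had 121, 125 and 119 normalised CPM with V3 and 109, 108 and 113 with V3.1, without overlap, a log2 fold change of −0.14 (SE 0.06, adjusted p = 0.145, and 0.0389 with the block). Rgs10 and Rgs19 were 2 of 6 members whose kits did not overlap, beside 33.3% of all genes. Rgs2 had 575, 482 and 585 with V3 and 599, 528 and 687 with V3.1, which was the higher kit in each mouse although the groups overlapped (0.15, SE 0.10, adjusted p = 0.348, and 0.0467 with the block). Rgs1 (0.09, SE 0.10), Rgs3 (−0.11, SE 0.13) and Rgs14 (−0.11, SE 0.14) had overlapping kits and adjusted p of 0.604 to 0.645.

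**Figure D3:**
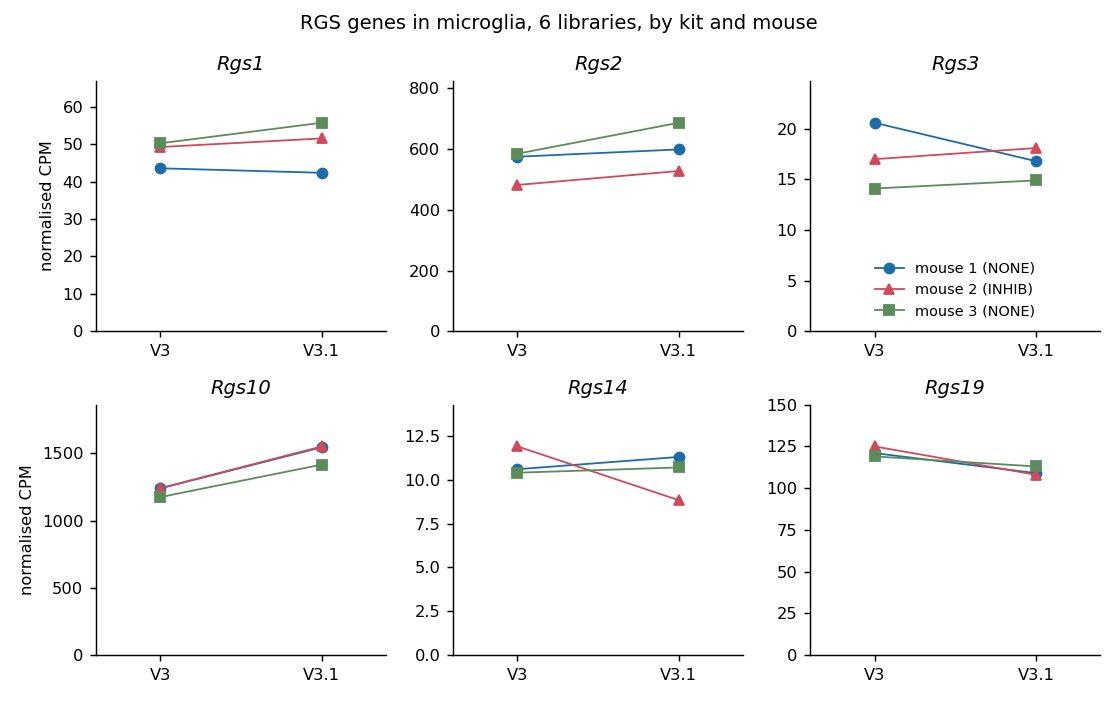
Normalised CPM in microglia for the 6 members tested, with V3 at left and V3.1 at right and a line for each mouse, all axes starting at 0. Rgs10 was higher with V3.1 in all 3 mice (1175 to 1241 against 1417 to 1552) and Rgs19 lower (119 to 125 against 108 to 113).

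A second gene lies inside Rgs10. Gm15503, a noncoding gene at chr7:128408968-128412341 on the same strand, shares 0 of its 3374 bases with the 15 distinct annotated Rgs10 exons, and so lies in an intron. Its CPM in microglia was 226, 219 and 247 with V3 and 157, 138 and 155 with V3.1, without overlap, the opposite direction to Rgs10. It was called lower with V3.1, at a log2 fold change of −0.60 (SE 0.07, adjusted p = 4.75e-04). Relative to Rgs10, its UMIs were 17.7 to 20.9% with V3 and 9.02 to 11.0% with V3.1. Gm15503 had 12566 UMIs in microglia, 11 in border macrophages and 0 in neutrophils and was, like Rgs10, highest in microglia. The sum of both genes was 1432 to 1482 CPM with V3 and 1562 to 1708 with V3.1, so adding Gm15503 to Rgs10 left V3.1 higher. Whether reads of unspliced Rgs10 were counted as Gm15503 was not tested. Gm11209, which overlaps Rgs3 on the other strand, had 0 UMIs.

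In border macrophages and neutrophils the kits were compared on CPM per library by two-sided exact permutation tests, where 3 libraries against 3 cannot give a p below 0.10. Rgs3 in border macrophages was 75.6 ± 78.6 CPM with V3 (SD, n = 3) and 0 in all 3 V3.1 libraries, with 2 UMIs in each V3 library, beside 8.41% of genes whose kits did not overlap. In neutrophils Rgs18 was 223 ± 22.9 CPM with V3 and 192 ± 6.66 with V3.1, and Rgs3 29.9 ± 3.11 and 21.1 ± 4.87, both without overlap, beside 11.3% of genes. All 3 had p = 0.10 in the exact permutation test, the smallest it can give, and 0.467 adjusted over the 14 tests. Rgs10 was higher with V3.1 in all 3 mice also in border macrophages (654 ± 231 against 818 ± 116 CPM, exact permutation p = 0.40).

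The inhibitor comparison asks whether members respond while the tissue is being processed. Rgs1 is among the genes the study lists as induced by dissociation, a list made on other samples, digested with enzymes without inhibitors. For cold Dounce homogenization, the method used here, the study found no significant genes between samples with and without inhibitors. In microglia, mouse 2 (INHIB) was set against mice 1 and 3 (NONE). Since INHIB was 1 mouse, its spread was assumed to be like that between the NONE mice, and the inhibitors cannot be told apart from the animal. Of 6 members tested edgeR called 0, against 0.807% of 13132 genes, DESeq2 also called 0, and 1 had an unadjusted p below 0.05 by edgeR, against 7.65% of genes. That member was Rgs2, at 502 normalised CPM in mouse 2 and 583 and 671 in mice 1 and 3, a log2 fold change of −0.32 (SE 0.10, adjusted p = 0.113). By library it was 480 and 521 CPM with INHIB and 583 to 682 with NONE (median 595), so the 2 INHIB libraries were below all 4 others, as for 7.71% of genes. Rgs18, with 17 UMIs in microglia, was higher in both INHIB libraries (0.329 and 0.352 CPM against 0 to 0.242), as for 5.83% of genes, 13.5% of genes not overlapping in either direction. In neutrophils Rgs2 was likewise lower, at 119 and 159 CPM against 163 to 238, as for 4.37% of genes (10.3% were higher and 14.7% either way), while in border macrophages (162 and 206 against 106 to 660) the libraries overlapped.

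Rgs1 in microglia was 50.3 normalised CPM with INHIB and 42.9 and 54.9 with NONE, the INHIB mouse between the others (log2 fold change 0.04, SE 0.11, adjusted p = 0.979). Rgs10 was 1381 against 1365 and 1378 and Rgs19 117 against 116 and 114, with log2 fold changes of 0.01 (SE 0.10) and 0.03 (SE 0.10). Rgs3 was 17.4 against 18.9 and 14.8 (0.04, SE 0.14) and Rgs14 10.5 against 10.9 and 10.6 (−0.04, SE 0.17). None of these 5 members differed by more than 1 SE.

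In border macrophages Rgs1 had a UMI in 12 of 41 cells of mouse 2 (29.3%, 16.1 to 45.5%), 9 UMIs with V3 and 16 with V3.1, so both of its libraries held it. Mice 1 and 3 had 0 of 18 and 0 of 10 cells, which by a limit of 3 counts allows shares of up to 16.7% and 30.0% (exact upper bounds 18.5% and 30.8%) and levels of up to 40.5 and 66.0 CPM. Microglia of the same mice had 43.5 and 54.6 CPM. The limit of 3 counts was just under the microglial level in mouse 1 and above it in mouse 3. This limit is narrower than an exact bound, so a level below that of microglia was not shown in either mouse. Rgs14 was in 7 of 41 cells of mouse 2 (17.1%) and in 0 of the cells of the other two mice, under the same limits. Rgs18 was lower in mouse 2 by mouse, as given before, but its libraries overlapped (0 and 12.1 CPM with INHIB, 0 to 153 with NONE). Of its border UMIs, 7 came from the V3 library of mouse 1, while the V3.1 library of that mouse had 0. Rgs19 was 36.4 and 45.0 CPM in the INHIB libraries against 70.5 to 90.0 in the NONE libraries.

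Rgs1, Rgs14 and Rgs19 were 3 of 7 members whose INHIB and NONE libraries did not overlap in border macrophages, beside 11.0% of genes with at least 3 UMIs (8.54% higher with INHIB and 2.46% lower). In a fit with a term for the difference between cell types in the effect of the inhibitors, added after these values were seen, Rgs1 in border macrophages had an adjusted p of 0.0529 by edgeR's quasi-likelihood test and the other members 1.00, so 0 members passed against 0.0262% of genes, and in neutrophils 0 against 0.0918%. Unadjusted, 3 members in border macrophages were under 0.05, Rgs1 (2.08e-05), Rgs18 (0.00480) and Rgs14 (0.0171), beside 4.53% of genes, and in neutrophils 0, beside 4.46%. Since the fit was prompted by the values of mouse 2, these p-values are no independent evidence. Within mouse 2, Pf4 had a UMI in 3 of the 12 cells with Rgs1 and in 20 of the 29 without, Mrc1 in 8 and 25, Ms4a7 in 12 and 28, Cd163 in 1 and 6, Folr2 in 2 and 5, Lyve1 in 0 and 2, and Ccr2 in 0 and 2, with median UMIs of 4839 and 4048. Between mice, the summed border markers were 5020, 4034 and 4158 CPM, the neutrophil markers 850, 568 and 924 CPM and the monocyte markers 108, 15.5 and 22.0 CPM in mice 1, 2 and 3. Their part in the result was not tested.

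**Figure D4:**
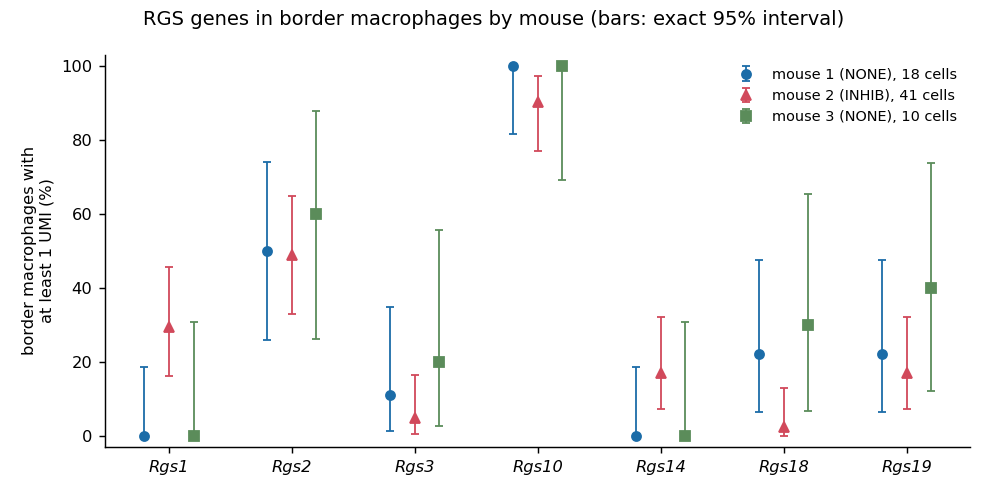
Share of border macrophages (%) with at least 1 UMI of each RGS gene in mice 1, 2 and 3 (18, 41 and 10 cells), with exact 95% intervals for counting error. Rgs1 and Rgs14 were seen in mouse 2 alone (29.3% and 17.1%), and Rgs18 was at 22.2%, 2.44% and 30.0%.

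Small numbers of microglia carried transcripts of a state, and the members were compared between these and the remaining microglia with the mouse as a block. The states were ranges of a UMI sum that holds no RGS gene. Chemokine-positive were 160 cells (0.844%) with at least 2 UMIs of Ccl3 and Ccl4. Interferon-positive were 294 (1.55%) with at least 5 UMIs summed over 8 genes, and immediate early positive 311 (1.64%) with at least 8 UMIs summed over 9 genes. Of these 9, Btg2, Junb and Zfp36 had a UMI in 55.4%, 49.6% and 28.3% of all microglia, but Fos and Egr1 in 0.264% and 0.216%. The states were set by cuts on these sums. They are not cell types, since 515, 72 and 268 cells lay 1 UMI below these cuts. Positive cells had more UMIs, with medians of 4011, 3675 and 4391 against 3496 to 3506. By edgeR 0 of 6 members were called in each state, against 1.75%, 2.99% and 0.470% of genes, and by DESeq2 also 0. An unadjusted p below 0.05 was found for 1, 1 and 0 members, against 11.5%, 13.4% and 7.16% of genes.

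Rgs2 was lower in the chemokine-positive cells of every mouse, at 439, 329 and 401 normalised CPM against 588, 505 and 677 in the rest. The log2 fold change was −0.58 (SE 0.10, adjusted p = 6.62e-06), just short of the fold required, 2.72% of genes passing on the adjusted p alone. It was called at −0.91 with the V3.1 libraries alone and was −0.30 (adjusted p = 0.745) with the V3 libraries alone. Rgs1 had 32.9, 48.2 and 123 in the chemokine-positive cells against 43.3, 50.4 and 54.6 (0.32, SE 0.26, adjusted p = 0.736), so mouse 3 alone was high, from 20 UMIs. In interferon-positive cells Rgs1 had 22.0, 39.7 and 33.3 against 42.6, 49.6 and 54.3 (−0.55, SE 0.23, adjusted p = 0.198), lower in each mouse but not past the threshold. In immediate early positive cells it had 48.2, 59.6 and 74.3 against 43.4, 50.3 and 54.9 (0.29, SE 0.17, adjusted p = 0.778), higher in each mouse and also not past it. Rgs10 differed by −0.15, −0.004 and −0.04 in the 3 states, with adjusted p of 0.457 to 0.989. Of the list of receptors, 5 of 29 tested were called higher and 1 lower in chemokine-positive cells, 4 and 1 of 28 in interferon-positive cells, and 1 and 0 of 28 in immediate early positive cells. The list's median log2 fold changes were 0.01, −0.15 and −0.03, against −0.07, −0.05 and −0.02 for all genes. Gpr84, a receptor for medium-chain fatty acids, was among those called higher each time, by 1.77 (SE 0.16, adjusted p = 2.15e-26), 0.60 (SE 0.16, adjusted p = 0.00345) and 1.18 (SE 0.12, adjusted p = 1.24e-20).

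**Figure D5:**
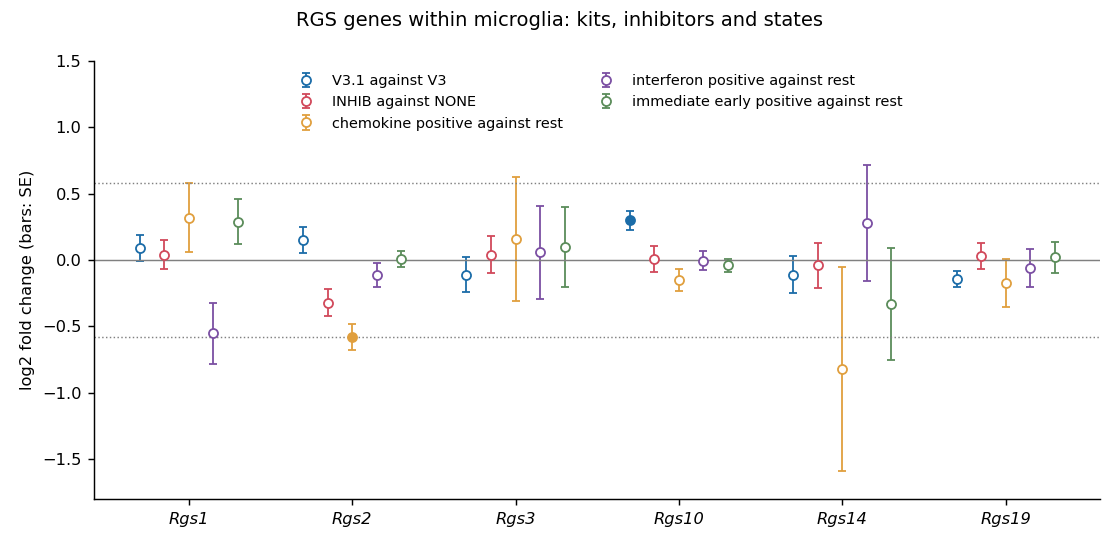
Log2 fold change of the 6 members tested in microglia for the kits, the inhibitors and the 3 states, with bars of 1 SE and filled symbols at an adjusted p below 0.05. The dotted lines mark the fold required (0.58), and Rgs10 between kits (0.30) and Rgs2 in chemokine-positive cells (−0.58) are the filled symbols.

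Between single microglia, Rgs1 varied more than genes of like abundance and Rgs10 and Rgs19 less. In cells thinned to 2000 UMIs the variance of Rgs10 was 1.22 times its mean, against a median of 1.33 for 52 genes within 1.25 times its mean level, and for Rgs19 it was 1.01 times against 1.06. For Rgs1 it was 1.14 times against 1.04 for 1403 such genes, with up to 7 UMIs in a cell and at least 2 UMIs in 152 of 18208 cells. Cells are not replicates, and these ratios were not tested.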

How the data were processed

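Cells of 3 mice were captured with the V3 and V3.1 kits, giving 6 libraries. The deposited values were raw UMI counts per gene and barcode, made by the authors with bcl2fastq and Cell Ranger 5.0.0 and its mm10 (GRCm38) reference, in which reads of a gene and of a same-strand gene inside it are told apart by annotation alone. Seurat is also named in the submitters' processing notes. Members and gene lists were chosen with earlier results of these data known.

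Kept barcodes had 1000 to 4000 genes, no more than 12000 UMIs and no more than 15% from mitochondrial genes. Gates were summed marker UMIs: at least 10 for microglia, at least 5 with fewer than 20 microglial UMIs for border macrophages, and at least 50 for neutrophils, and cells past the gate of another type, or with 3 UMIs of T and NK cell or 10 of B cell markers, were kept out, as were microglia and border macrophages with 3 monocyte marker UMIs. No doublet caller was used in the main analysis, and as an alternative cells in the top 4% of Scrublet scores (scanpy 1.11.5) were left out.

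UMIs were summed per mouse or library and tested in edgeR 4.0.16 (R 4.3.3) with TMM, filterByExpr and the quasi-likelihood test, two-sided, with Benjamini-Hochberg adjustment over all genes tested. Calls needed an adjusted p under 0.05 together with a log2 change of more than 0.58. Gate and state genes were left out of the tests but kept in library sizes. SE is the log2 fold change over the square root of F. The cell type and state fits had the mouse as a block, and the kit fit did not. The kits' libraries came from the same animals by their labels, and deviations of 500 genes from the kit means correlated at r = 0.412, 0.626 and 0.237 within mice 1, 2 and 3, so they were paired. DESeq2 1.42.0, RLE size factors, no filter, 500 genes per cell, higher gate cuts, each mouse left out, each kit alone, equal microglia numbers (908 per library) and the block were alternatives. Scripts were tested on simulated data. Per-library depth was 6275898 to 18872816 UMIs, and the intervals are Clopper-Pearson.

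Named in the text are the members, the called genes with the largest changes in each fixed list that moved the same way in every mouse (at most 3 each way), and the 3 genes most like each member with a mean of at least 20 CPM. The lists were 24 other RGS and RGS-like genes, 13 G alpha, 16 G beta and gamma, 36 receptor and 30 kinase, arrestin and effector genes. Gm15503 and Gm11209 were named after their values were seen, for their overlap with members in GENCODE M21, a GRCm38 annotation that is not the filtered one used for counting. Promoters are RefSeq's.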

Additional observations from a re-analysis of the deposited data

Results flagged for a closer look

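All 7 members had counts above the limit of 3 UMIs (2.46 CPM) in 207 cells that carried monocyte markers and entered no comparison. Rgs2 was highest among the mice in mouse 3, as in the gated cells, with 267 CPM over all (295, 218 and 360 CPM in mice 1, 2 and 3). Rgs10 was 228 CPM there (239, 221 and 236), between its levels in border macrophages (747) and neutrophils (19.6). Rgs18 was 54.0 CPM (53.1, 52.9 and 58.1), also between border macrophages (35.1) and neutrophils (201), and had a UMI in 49 of the 207 cells. Rgs14 was 63.9 CPM, Rgs3 46.7 CPM and Rgs19 104 CPM. Rgs1 was 4.91 CPM from 6 UMIs in 3 cells, against 49.2 CPM in microglia. The cells share markers with neutrophils, which also had Ly6c2 in 87.3% of cells, and their make-up was not tested. No library stood apart from the other 3 among 18 groups of 4 NONE libraries, where about 1 in 20 would by chance.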

How the results depend on the processing

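Of 543 values of single members under alternatives, 481 kept their direction and their side of the threshold, 12 lost a call, 20 gained one, 25 turned direction and 5 moved by more than their spread. Of 924 values of list genes, 858 kept their call and 66 lost it without turning direction. Total UMIs without scaling factors, the cell type by inhibitors term and the leaving out of mice in the exact tests were chosen after seeing the data. Unless a value shows it, the cause was not tested. For the inhibitors, leaving out mouse 1 or 3 leaves no spread within a group and gave no test.

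Members called between border macrophages and microglia (2) were 3 to 5 with a mouse left out and 4 with total UMIs. Genes called there (1309) were 741 to 1131 with a mouse left out, 716 with the V3 libraries alone and 835 with V3.1 alone, fewer cells in each case. V3 alone also gave 3151 (of 5175) between neutrophils and microglia and 2114 (of 3603) between neutrophils and border macrophages. For the kits the genes called (367) were 163 to 418 with a mouse left out and 232 with equal numbers of microglia. For the inhibitors (106) they were 15 with DESeq2, 57 without the highest Scrublet scores, 4 with V3 alone and 68 with V3.1 alone. For chemokine-positive cells (203) they were 105 with DESeq2, 356 with cuts 2 times as high, 50 with V3 alone and 74 to 164 with a mouse left out. For interferon-positive cells (349) they were 196 with V3 alone and 221 to 346 with a mouse left out. For immediate early positive cells (55) they were 25 with DESeq2, 95 with cuts 2 times as high, 16 with V3 alone and 21 to 68 with a mouse left out. Each lowest leave-one-out count of genes given here came without mouse 2.

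Members called in chemokine-positive cells (0) were 1 with no filter, without the highest Scrublet scores or with V3.1 alone, 2 with cuts 2 times as high (Rgs2 at −0.79 and Rgs10 at −0.60) and 0 to 1 with a mouse left out. In immediate early positive cells (0) the count was 1 with cuts 2 times as high, Rgs10 at −1.29 (adjusted p = 0.0107). Members whose kits did not overlap were 1 to 2 in border macrophages and 2 to 4 in neutrophils with a mouse left out, against 1 and 2. With fewer libraries per kit the kits part more easily for any gene. The share over all genes is not given for this setting, so nothing is read from these counts.

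With the mouse as a replicate block, the kits gave 539 genes and 0 members called, against 367 and 0 without it, and Rgs2 and Rgs19 passed on the adjusted p alone. Without the block, chemokine-positive cells gave 135 genes and 1 member called (Rgs2 at −0.59) and immediate early positive cells 30 genes. No other member's call changed with the block.

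Between border macrophages and microglia Rgs1 turned to −1.70 (adjusted p = 0.695) with DESeq2 and −11.41 (0.0600) without replicate 2 (up to 1.30 without another mouse), and Rgs14 to −9.27 (0.569) without replicate 2 (up to 1.99), since mouse 2 held all their border UMIs. These values depend on the prior count. Rgs3 turned to −0.04 there without the V3 library of mouse 3. Rgs2 turned to 0.29 between neutrophils and microglia with 500 to 4000 genes per cell, and to −0.41 between neutrophils and border macrophages with total UMIs. In the comparison of kits Rgs3 ran from −0.23 to 0.03 with a mouse left out and Rgs14 turned to 0.06 without mouse 2. For the inhibitors Rgs14 turned to 0.02 with 500 genes per cell and 0.17 with V3 alone, Rgs3 to −0.15 with V3 alone, Rgs19 to −0.04 with V3.1 alone and Rgs10 to −0.004 with total UMIs. In chemokine-positive cells Rgs1 ran from −0.22 to 0.63 with a mouse left out, the lowest without mouse 3. In interferon-positive cells Rgs10 turned to 0.03 with DESeq2, RLE size factors or 500 genes per cell and 0.01 with V3 alone or without mouse 1. In immediate early positive cells Rgs2 turned to −0.02 with no filter, −1.33 (adjusted p = 0.104) with cuts 2 times as high, −0.03 without mouse 1, −0.000 with V3 alone and −0.01 with V3.1 alone, and Rgs10 to 0.01 with 500 genes per cell.

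Thinning to 2000 UMIs lowered shares of microglia with a UMI to 8.89% (Rgs1), 65.6% (Rgs2), 3.41% (Rgs3), 91.2% (Rgs10), 2.17% (Rgs14) and 20.8% (Rgs19), those of border macrophages to 24.6% (Rgs2), 79.7% (Rgs10) and 11.6% (Rgs19), and those of neutrophils to 33.1% (Rgs2), 5.09% (Rgs3), 5.45% (Rgs10), 16.7% (Rgs14), 30.2% (Rgs18) and 21.5% (Rgs19). Depth limits border macrophages most, with 313190 UMIs in 69 cells.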

Other observations

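The 36 cells with lymphocyte markers had another set of members. Rgs1 was 83.4 CPM there from 12 UMIs in 7 cells, 59.1, 39.5 and 235 CPM in mice 1, 2 and 3, and Rgs3 was 111 CPM from 16 UMIs in 13 cells, 88.7, 119 and 157 CPM by mouse. Rgs3 was thus above its plain CPM in microglia (17.2), border macrophages (19.2) and neutrophils (24.3) in each mouse. Rgs2 and Rgs19 were both 69.5 CPM, Rgs10 48.7 CPM and Rgs14 34.8 CPM. Rgs18, with 2 UMIs, was below the limit of 3 counts (20.9 CPM). These cells are few and were in no comparison, and no test was made.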
